A study of Mus musculus with 8 samples.

Results

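Transcripts of 36 cytosolic and mitochondrial protein-folding chaperones were compared between mouse libraries labelled Control and Control+tranilast, named the control and tranilast groups here. The members were taken by gene symbol from a list drawn up with earlier results of these data known, and all 36 were found among the 22063 genes of the deposited table. They comprise HSP70 proteins, their HSP110 relatives and cofactors, HSP90 proteins and cofactors, the mitochondrial chaperones, the 8 subunits of the CCT chaperonin, 4 prefoldin subunits and the heat-shock factors Hsf1 and Hsf2. The series holds 8 poly-A enriched RNA-seq libraries, 4 per group, all labelled as wild type and as liver. By the series design both groups were on HFHC, a diet rich in fat and cholesterol that models steatohepatitis, though the labels name no diet, and the second group also received tranilast, an anti-allergic drug that the methods describe as given by mouth. The methods describe male C57BL/6J mice, and the labels name neither strain, age, dose nor duration. Nothing in the labels states that each library came from a separate animal, so the p-values measure the spread between these libraries.

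Chaperones bind proteins that are not yet folded, or that have lost their fold, and keep them from aggregating. HSP70 proteins take up short exposed stretches in an ATP-driven cycle, in which J-domain proteins such as Dnaja1 start ATP hydrolysis and HSP110 proteins such as Hsph1 exchange the nucleotide. HSP90 receives clients from HSP70 through Stip1 and matures kinases and steroid receptors, CCT is a double-ring chamber that folds actin and tubulin, which prefoldin delivers, and Hspd1 with its lid Hspe1 is the equivalent chamber of mitochondria. Hsf1 induces many of these genes under heat or other protein-damaging stress by binding repeats of a short DNA element.

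Levels are given as CPM, which scale each count to the library's total after TMM correction. Totals ran from 12053036 to 15618787 counts. A gene with 0 counts could thus have been present at up to 3 counts, or 0.192 to 0.249 CPM before the TMM correction, a limit for counting error only. The 9 hepatocyte markers together made up 1.5e-04% of a library or less, whereas the 11 macrophage markers held 0.939% to 0.997% of control and 0.928% to 0.988% of tranilast libraries. Serum albumin (Alb) reached at most 2 counts, and 3 of the 5 Kupffer cell markers (Clec4f, Vsig4 and Timd4) were at 0 in all 8 libraries. All 5 Kupffer cell markers together held 5.9e-05% or less. Markers of stellate cells and fibroblasts, endothelial cells, cholangiocytes, T cells, B cells and erythroid cells held 2.5e-04% or less for each type. In libraries labelled as liver, the defining markers of hepatocytes and of these other liver cell types were thus near 0. Of the cell types listed, only macrophages had markers at a share above 8.8e-04%. The summed share of 5 neutrophil markers moved with the groups, from between 4.1e-04% and 5.7e-04% to between 7.0e-04% and 8.8e-04%, with S100a9 and Retnlg at 0 counts, and their part in the results was not tested. In RNA of pooled cells, fewer cells of a type and less RNA per cell cannot be told apart.

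The heat-shock element is a run of GAA units in alternating orientation, and the promoter windows of the members were searched for it so that the sequence can be read beside the expression values. RefSeq windows of GRCm38.p6, each from 250 bases before to 50 bases after a transcript start, were found for 29 of the 36 members. The 3-unit form, GAANNTTCNNGAA or its complement TTCNNGAANNTTC, was present in windows of 4 of these 29 genes (13.8%), namely Hspd1, Hspe1, Hsph1 and Chordc1, and in 0.662% of all 27025 genes with a window. The 2-unit forms GAANNTTC and TTCNNGAA, which read the same on both strands and lie within the 3-unit form, were present in 13 members (44.8%) and in 17% of all genes. The stretches of 30 bases shown here carry the 3-unit form, or the 2-unit form upstream of the RefSeq starts of Hspa1a, Hspa1b, Fkbp4 and Dnaja1. The GAA and TTC units are in capitals.
Hspe1, chr1:55088053-55088082, plus strand: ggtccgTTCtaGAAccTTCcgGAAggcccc
Hspd1, chr1:55088053-55088082, minus strand: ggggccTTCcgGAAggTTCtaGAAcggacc
Hsph1, chr5:149636280-149636309, minus strand: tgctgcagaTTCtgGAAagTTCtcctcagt
Chordc1, chr9:18292259-18292288, plus strand: accgGAAcgTTCggGAAaaTTCctGAAgca
Hspa1b, chr17:34959324-34959353, minus strand: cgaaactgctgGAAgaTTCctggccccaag
Hspa1a, chr17:34972242-34972271, minus strand: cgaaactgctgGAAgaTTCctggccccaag
Fkbp4, chr6:128438789-128438818, minus strand: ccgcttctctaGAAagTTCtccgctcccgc
Dnaja1, chr4:40722333-40722362, plus strand: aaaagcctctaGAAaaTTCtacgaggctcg
The Hspe1 and Hspd1 stretches are the opposite strands of the same 30 bases. RefSeq gives Hspd1 a pair of starts. From the first, 216 bases from the Hspe1 start, the genes run away from each other and the 30 bases lie between them. The other lies 95 bases inside Hspe1, and from it the genes overlap and the 30 bases come after the Hspd1 start. The Hspa1a and Hspa1b stretches are identical. Hsph1 carries its element after the RefSeq start and Chordc1 across it. In the GENCODE annotation Dnaja1 and Chordc1 start before the stretches shown, at 40722150 and 18292125, so these stretches lie inside the annotated genes. A match describes these letters and does not show that a factor binds there.

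With tranilast the chaperone transcripts were lower across nearly every complex. Of the 35 members tested, 28 had a lower level at an adjusted p-value below 0.05 and 0 a higher one (quasi-likelihood test of edgeR, Benjamini-Hochberg adjustment over all 10770 genes tested). Among all genes tested, 28.8% were called lower and 28.2% higher. The median log2 fold change was -0.37 over the 35 members and 0.01 over all genes tested, and the members' values ran from -0.66 to 0.10. In the same 28 members the highest tranilast library was below the lowest control library, which was the case for 25.2% of all genes, and no member lay wholly above, against 24.5% of all genes. Abundant genes were called lower more often than others in these data. Of the 2361 genes with a mean of at least 100 CPM, 59.2% were lower and 17.0% higher, with a median log2 fold change of -0.14, and of the 24 members at this level 23 were lower and 0 higher. Across the 35 members, the log2 fold change and the level had a Spearman correlation of -0.52, and across all 10770 genes it was -0.31. These correlations are over genes of the same libraries and carry no p-value.

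The share of a library's counts that the members took was lower in every tranilast library than in any control library. Together the members took 2.07% to 2.12% of a control library and 1.65% to 1.68% of a tranilast library. HSP70 went from between 0.739% and 0.759% to between 0.542% and 0.564%, HSP90 from between 0.415% and 0.426% to between 0.307% and 0.317%, and CCT from between 0.363% and 0.378% to between 0.314% and 0.318%. In none of these did the ranges overlap, whereas the prefoldin subunits held between 0.0134% and 0.0159% and between 0.0136% and 0.0151%. The scaling of libraries moved with the groups. TMM factors ran from 0.956 to 0.965 for control and from 1.037 to 1.045 for tranilast libraries, and without them the median of all genes was 0.12 and that of the members -0.25 on the log2 fold change scale. The members stood at -0.37 relative to all genes with and without the factors, and without them 25 members were called lower and 2 higher. All genes are not a like comparison in level. With the factors, genes with a mean of at least 100 CPM, as 24 of the members had, stood at a median of -0.14.

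**Figure D1:**
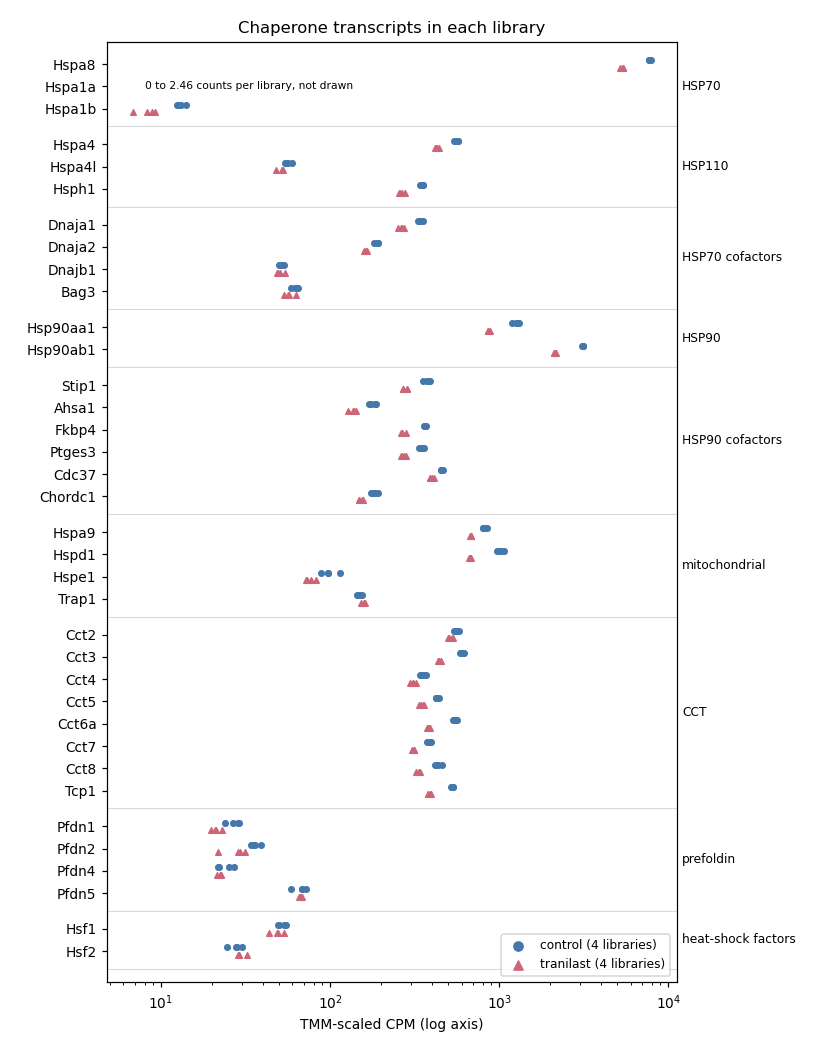
TMM-scaled CPM of each chaperone gene on a log axis, with 1 point per library, circles for the 4 control and triangles for the 4 tranilast libraries, grouped by complex. In 28 genes the triangles lie wholly to the left of the circles, as for Hspa8, whose control libraries are at 7706 CPM or more and whose tranilast libraries are at 5417 CPM or less.

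HSP70 was dominated by Hspa8, the constitutive cytosolic member, which in the control group had rank 3 among all genes by mean CPM and rank 11 by mean FPKM, the measure that accounts for transcript length. Hspa8 (ENSMUSG00000015656, chromosome 9 of GRCm38, 40800984 to 40810087) had 7715, 7815, 7706 and 7881 CPM in control replicates 1 to 4 and 5400.1, 5389, 5417 and 5186 CPM in tranilast replicates 1 to 4. This is a log2 fold change of -0.54 (SE, standard error of the fit, 0.0173, edgeR adjusted p = 1.5e-14). Both groups were narrow and lay far apart, and tranilast replicate 4 was the lowest library. Hspa1b, a stress-inducible HSP70, was much rarer, with means of 13.1 ± 0.725 and 8.28 ± 1.04 CPM (SD, n = 4 each). Its libraries held 13.2, 14.1, 12.8 and 12.4 CPM against 9.23, 8.83, 8.23 and 6.85 CPM. This gave the lowest log2 fold change of the members, -0.66, with a wide SE of 0.112 (adjusted p = 6.4e-05). Hspa1a, the neighbouring copy, had between 0 and 2.46 counts per library, under the limit of 3 counts in all 8, and this depth could show no difference. The longest Hspa1a and Hspa1b transcripts shared 47.1% of the words of 100 bases of Hspa1a, and their counts were partly fractional, so how the reads were divided between them is uncertain. Summed and set against Hspa8 within each library, the inducible copies had a log2 ratio of -9.21 ± 0.0874 (SD, n = 4) and -9.33 ± 0.159 (SD, n = 4), and the groups overlapped (difference -0.12, two-sided exact permutation p = 0.229, adjusted p = 0.343 over 6 ratios). The difference was -0.05 without tranilast replicate 4, the lowest library, and up to -0.17 in size with another library left out.

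HSP110 proteins, which reload HSP70 with ATP, were all called lower. For comparison, 28.8% of all genes tested were called lower, and 59.2% of those with a mean of at least 100 CPM. Hsph1, which is itself heat-inducible, had 355, 350.4, 339 and 356 CPM in control and 261, 265, 277 and 257 CPM in tranilast libraries, a log2 fold change of -0.40 (SE 0.0304, adjusted p = 2.9e-09). Hspa4, its constitutive relative, fell from 559 ± 13.8 to 427 ± 10.1 CPM (SD, n = 4 each), with a log2 fold change of -0.39 (SE 0.0273, edgeR adjusted p = 1.1e-09). Within the libraries the log2 ratio of Hsph1 to Hspa4 was -0.67 ± 0.0323 and -0.69 ± 0.0219 (SD, n = 4 each) and the groups overlapped (two-sided exact permutation p = 0.457, adjusted p = 0.549 over 6 ratios). Hspa4l was near the threshold, at 56.4 ± 2.21 and 51.2 ± 2.24 CPM (SD, n = 4 each), with a log2 fold change of -0.14 (SE 0.0499, edgeR adjusted p = 0.0228). Its call was lost without control replicate 4 (edgeR adjusted p = 0.076), without tranilast replicate 4 (0.0969), and with upper-quartile factors (0.217), with library size alone (0.7), and on FPKM plus 1, where the value was -0.02 (limma adjusted p = 0.841).

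The cofactors of HSP70 split. Dnaja1, a J-domain protein of class A, had 338, 354, 332 and 347 CPM in control and 274, 253, 267 and 262 CPM in tranilast libraries, a log2 fold change of -0.38 (SE 0.0316, edgeR adjusted p = 1.2e-08). Dnaja2, of the same class, fell from 189 ± 5.67 to 163 ± 3.15 CPM (SD, n = 4 each), a log2 fold change of -0.22 (SE 0.0334, edgeR adjusted p = 2.0e-05). Dnajb1, the class B protein that Hsf1 induces, had 53.6, 51.5, 50.9 and 50.1 CPM against 48.4, 50.7, 49.1 and 54 CPM, so the groups overlapped. Its log2 fold change was -0.03 (SE 0.05, edgeR adjusted p = 0.675), and it turned to 0.09 with library size alone. The log2 ratio of Dnajb1 to Dnaja1 within a library does not depend on the scaling. It was -2.66, -2.78, -2.70 and -2.79 in control and -2.50, -2.32, -2.44 and -2.28 in tranilast libraries. The groups did not overlap, and the difference was 0.35 (two-sided exact permutation p = 0.0286, the smallest that 4 against 4 libraries allow), but over the 6 ratios the adjusted p-value was 0.0857, above 0.05. Exons of Dnaja1 overlap those of Smu1 and Gm6297 on the opposite strand, and the annotation holds 1 pseudogene named after it. With these overlaps the ratio is less certain than that of separate genes. The Dnaja1 counts were fractional only by a small part, as in 4752.02 in control replicate 1 and 4019.1 in tranilast replicate 4. Bag3, a nucleotide exchange factor that routes clients to autophagy, had 62.0 ± 2.54 and 57.4 ± 3.88 CPM (SD, n = 4 each), a log2 fold change of -0.11 (SE 0.0531, edgeR adjusted p = 0.0858). It passed the threshold without control replicate 3 (edgeR adjusted p = 0.0488) or without tranilast replicate 2 (0.0225). With library size alone its value was 0.01.

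Both cytosolic HSP90 genes were called lower, with similar log2 fold changes. Among genes with a mean of at least 100 CPM, 59.2% were called lower. Hsp90ab1, the constitutive beta form (chromosome 17, 45567775 to 45573271), had 3117, 3121, 3131 and 3104 CPM in control and 2101, 2131, 2161 and 2112 CPM in tranilast libraries. All 4 tranilast libraries lay far below the control libraries, which differed little among themselves, and the log2 fold change was -0.55 (SE 0.0177, edgeR adjusted p = 1.5e-14). Hsp90aa1, the inducible alpha form (chromosome 12, 110690605 to 110702728), had 1304, 1289, 1199.7 and 1268 CPM against 859.7, 862, 887 and 864 CPM, a log2 fold change of -0.54 (SE 0.0259, edgeR adjusted p = 4.7e-12). The log2 ratio of Hsp90aa1 to Hsp90ab1 was -1.30 ± 0.0562 in the control and -1.29 ± 0.00886 in the tranilast group (SD, n = 4 each), a difference of 0.01 (two-sided exact permutation p = 0.914, adjusted p = 0.914 over 6 ratios), which turned to -0.02 without control replicate 3. Their longest transcripts shared 0 words of 100 bases.

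The HSP90 cofactors were called lower in 6 of 6 genes. All 6 had a mean of at least 100 CPM, a level at which 59.2% of genes were called lower. Stip1, which hands clients from HSP70 to HSP90, had 356, 381, 377 and 391 CPM in control and 284, 272, 284 and 271 CPM in tranilast libraries, a log2 fold change of -0.44 (SE 0.0324, edgeR adjusted p = 2.2e-09). Fkbp4, a peptidyl-prolyl isomerase of steroid receptor complexes, fell from 366 ± 4.72 to 269 ± 8.12 CPM (SD, n = 4 each), a log2 fold change of -0.44 as well (SE 0.029, edgeR adjusted p = 4.1e-10). Ahsa1, which stimulates the ATPase of HSP90, had a log2 fold change of -0.39 (SE 0.0415, edgeR adjusted p = 2.6e-07), and Ptges3, the p23 cofactor that holds HSP90 closed, one of -0.37 (SE 0.0316, edgeR adjusted p = 1.5e-08). Chordc1, whose promoter window carries 5 alternating units across its RefSeq start, fell from 183 ± 7.97 to 152 ± 3.88 CPM (SD, n = 4 each), a log2 fold change of -0.27 (SE 0.0369, edgeR adjusted p = 6.9e-06). The change was smallest for Cdc37, which loads kinases onto HSP90, with 459 ± 7.07 and 399.9 ± 10.5 CPM (SD, n = 4 each) and a log2 fold change of -0.20 (SE 0.027, edgeR adjusted p = 5.6e-06). Cdc37 and Chordc1 were not called on the log2 of the deposited FPKM plus 1, at adjusted p-values of 0.389 and 0.0633 in limma.

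**Figure D2:**
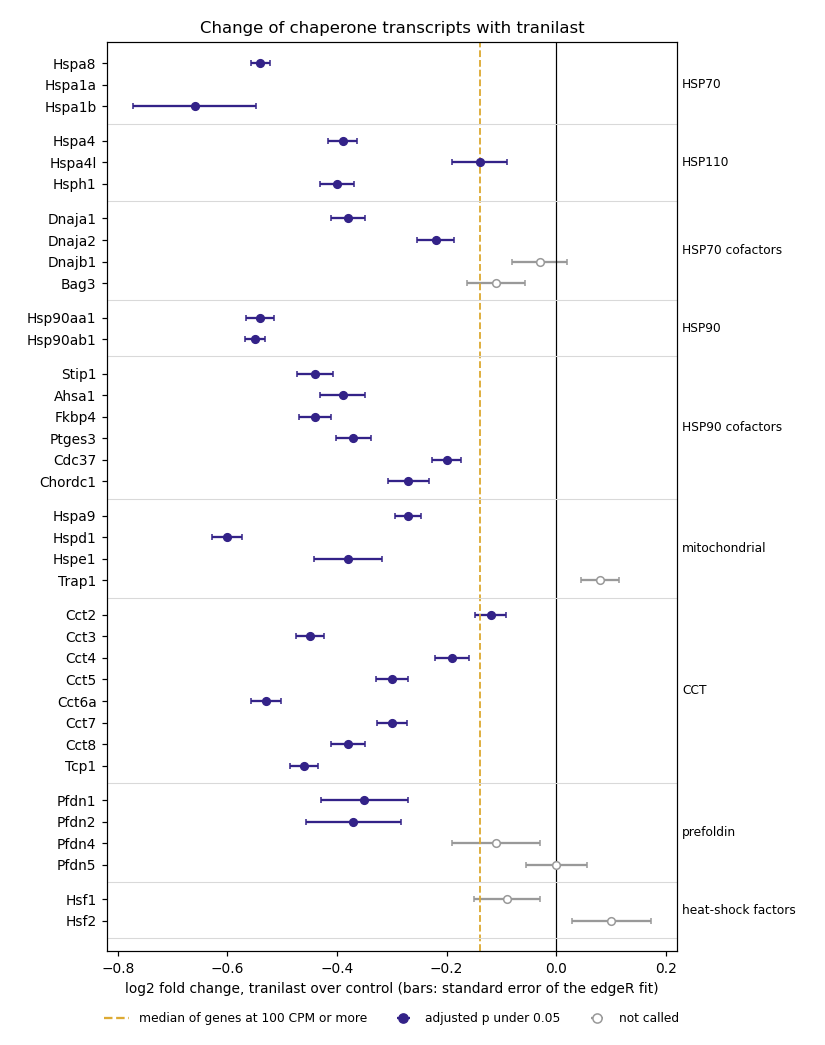
Log2 fold change of each tested chaperone gene, tranilast over control, with bars for the standard error of the edgeR fit, filled points for an adjusted p-value under 0.05 and open points otherwise. The dashed line is the median of genes with a mean of at least 100 CPM, -0.14. Hspa1b, Hspd1, Hsp90ab1, Hsp90aa1, Hspa8 and Cct6a lie farthest to the left, and Trap1 and Hsf2 lie to the right of 0.

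In the mitochondrial set, the chaperonin and Hspa9 were called lower and the mitochondrial HSP90 was not called. Hspd1, the HSP60 ring (chromosome 1, 55077835 to 55088243), had 1027, 1073, 994 and 979 CPM in control and 676, 665, 669.8 and 678 CPM in tranilast libraries, a log2 fold change of -0.60 (SE 0.0274, edgeR adjusted p = 2.7e-12). Hspe1, the HSP10 lid that starts beside it (chromosome 1, 55088132 to 55091307), had 97.6, 114, 96.9 and 88.6 CPM against 77, 72, 73.5 and 82.3 CPM, a log2 fold change of -0.38 (SE 0.0626, edgeR adjusted p = 5.1e-05). The tranilast libraries lay below the control libraries for both genes, with the gap much narrower for Hspe1. Within the libraries the log2 ratio of Hspd1 to Hspe1 was 3.40, 3.24, 3.36 and 3.47 in the control group and 3.13, 3.21, 3.19 and 3.04 in the tranilast group. It was lower in 4 of 4 tranilast libraries by a mean difference of -0.22, with the smallest p-value the exact permutation test allows (two-sided p = 0.0286), and the adjusted p-value over the 6 ratios was 0.0857. The exons of these genes overlap on opposite strands, Hspe1 counts were fractional, and the annotation holds 5 pseudogenes named after Hspd1 and 6 after Hspe1, so that their ratio is less certain than that of separate genes. Hspa9, the mitochondrial HSP70 that also drives protein import, fell from 817 ± 18.1 to 679.9 ± 6.49 CPM (SD, n = 4 each), a log2 fold change of -0.27 (SE 0.0236, edgeR adjusted p = 2.5e-08). Trap1, the HSP90 of mitochondria, had 145, 146, 151 and 155 CPM in control and 158, 162, 159 and 152 CPM in tranilast libraries. The groups overlapped only where control replicate 4 passed tranilast replicate 4, and its log2 fold change was 0.08 (SE 0.0353, edgeR adjusted p = 0.0628). It was called higher without control replicate 4 (edgeR adjusted p = 0.0412), without tranilast replicate 4 (0.032), with upper-quartile factors (0.0016), with library size alone (1.2e-04), and on FPKM plus 1 (limma adjusted p = 9.1e-04). Exons of Trap1 overlap those of Dnase1 on the opposite strand, and the part of this in its value was not tested.

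All 8 subunits of CCT, each with a mean of at least 100 CPM, were called lower, as were 59.2% of all genes at that level. The 8 subunits did not change by the same amount. Cct6a (chromosome 5, 129786998 to 129846371) fell most, from 565, 557, 534 and 544 CPM to 384, 374, 393 and 378 CPM, a log2 fold change of -0.53 (SE 0.0273, edgeR adjusted p = 1.6e-11). Tcp1, the alpha subunit, followed with -0.46, then Cct3 with -0.45, Cct8 with -0.38, and Cct5 and Cct7 with -0.30 each. Cct4 had a log2 fold change of -0.19 (SE 0.0315, edgeR adjusted p = 6.3e-05). Cct2 (chromosome 10, 117051001 to 117063814) changed least, from 541, 577, 566 and 564 CPM to 524, 496, 506 and 535 CPM, a log2 fold change of -0.12 (SE 0.0291, edgeR adjusted p = 0.00136). The calls of Cct2 and Cct4 were lost with library size alone, at edgeR adjusted p-values of 0.82 and 0.0621, that of Cct2 also with upper-quartile factors (0.108), and both on FPKM plus 1 (limma adjusted p = 0.679 and 0.242). The annotation types the Cct6a gene as a processed transcript, and its exons overlap those of Psph and Snora15. The part of this in its value was not tested.

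Because the complex holds each subunit in equal number, each was also set against the summed counts of the other 7 within a library, a comparison chosen after the values were seen and independent of the scaling. The log2 ratio of Cct2 was -2.60, -2.55, -2.51 and -2.54 in control and -2.26, -2.34, -2.32 and -2.23 in tranilast libraries, higher by 0.26. That of Cct4 was higher by 0.17. Cct6a went from -2.52, -2.61, -2.61 and -2.60 to -2.79, -2.82, -2.74 and -2.82, a difference of -0.21, Tcp1 had a difference of -0.13 and Cct3 of -0.12. In these 5 subunits the groups did not overlap, and each had an exact permutation two-sided p of 0.0286 and an adjusted p of 0.0457 over the 8 ratios. Cct5, Cct7 and Cct8 had differences of 0.05, 0.05 and -0.04 with overlapping groups (adjusted p = 0.098, 0.0762 and 0.114 in the same exact permutation test). Each ratio holds the other 7 subunits in its denominator, so the 8 ratios depend on each other and the 5 are not separate results. As the comparison was chosen with the values known, and the gene pairs were adjusted apart, these p-values are only descriptive. Exons of Cct6a, Cct7, Cct8 and Tcp1 overlap those of genes on the opposite strand, Psph in the case of Cct6a, and whether counting used strand is not given in the sources used here. Their part in the ratios was not tested.

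Levels of different genes can be compared only per transcript length. By the deposited FPKM, which are scaled for length and depth, the level of the CCT subunits in the control group ran from Cct3 at 293 ± 5.69 through Cct2 at 278 ± 6.89 to Cct4 at 146 ± 6.96 (SD, n = 4 each). Tcp1 at 228 ± 3.46 and Cct5 at 227 ± 3.64 FPKM did not differ beyond their spread, nor did Cct6a at 204 ± 5.40 and Cct8 at 201 ± 9.06 FPKM. In the tranilast group Cct2 was first at 275 ± 9.25 FPKM and Cct3 followed at 233 ± 4.43. The ranges of Cct6a at 154 ± 3.03 and Cct7 at 157 ± 1.48 FPKM overlapped. Library by library, Cct6a had 154, 151, 158 and 153 and Cct7 had 155, 158, 158 and 158 FPKM. Among all members Hspa8 had the highest FPKM, 3121 ± 34.8 in the control and 2326 ± 42.8 in the tranilast group, and Hsp90ab1 followed with 1189 ± 4.38 and 879 ± 12 (SD, n = 4 each).

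**Figure D3:**
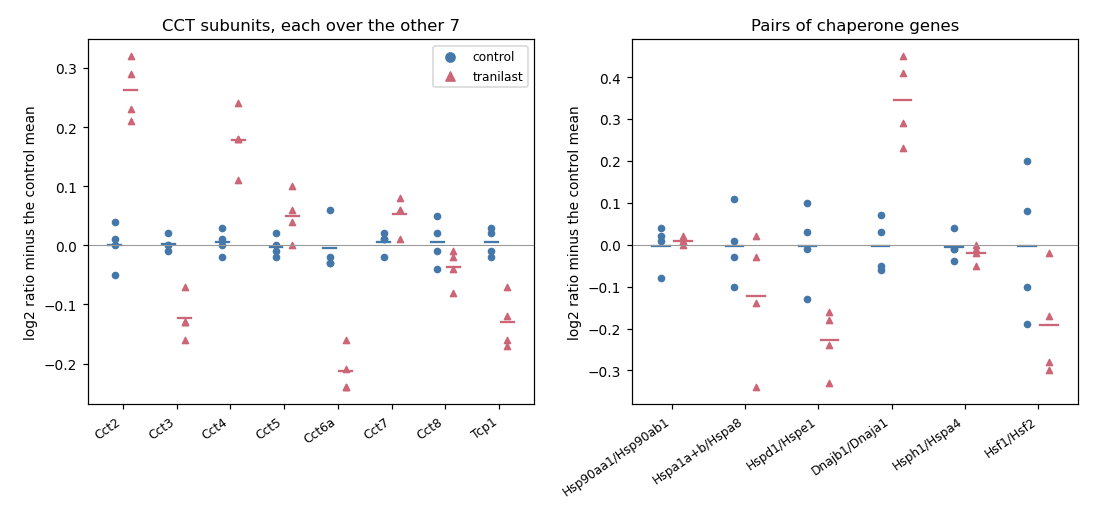
Log2 ratios within each library, drawn as the difference from the control mean, for each CCT subunit over the other 7 (left) and for 6 pairs of chaperone genes (right), with circles for control and triangles for tranilast libraries and a line for each group's mean. Cct2 and Cct4 lie above and Cct3, Cct6a and Tcp1 below their control libraries without overlap, as do Dnajb1 over Dnaja1 (above) and Hspd1 over Hspe1 (below).

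Prefoldin, which delivers unfolded actin and tubulin to CCT, was called lower in part. Pfdn1 fell from 27.0 ± 2.35 to 21.2 ± 1.41 CPM (SD, n = 4 each), a log2 fold change of -0.35 (SE 0.079, edgeR adjusted p = 0.00108). Pfdn2 had 35, 39, 34.2 and 36.1 CPM in control and 29.5, 28.4, 21.9 and 31.6 CPM in tranilast libraries, a log2 fold change of -0.37 (SE 0.0872, edgeR adjusted p = 0.0016). Tranilast replicate 3 was the lowest, and without it the log2 fold change was -0.27. Pfdn4 had 24.0 ± 2.59 and 22.3 ± 0.668 CPM (SD, n = 4 each), a log2 fold change of -0.11 (SE 0.0804, edgeR adjusted p = 0.271). Pfdn5 had 58.6, 72.3, 68.5 and 68.7 CPM against 67.5, 65.6, 66.8 and 68 CPM, a log2 fold change of -0.002 (SE 0.0553, edgeR adjusted p = 0.984). Exons of Pfdn2 and Pfdn4 overlap those of genes on the opposite strand, and exons of Pfdn5 those of Myg1 on the same strand. The part of these overlaps in the values was not tested. The other two subunits of the hexamer, which are not among the members and were picked out after their values were seen, were Pfdn6 with a log2 fold change of -0.21 (edgeR adjusted p = 0.0219) and Vbp1 with -0.12 (edgeR adjusted p = 0.0989).

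The heat-shock factors themselves were not called in either direction. Hsf1, the main activator of the heat-shock response, had 50.1, 49.5, 53.3 and 54.9 CPM in control and 43.7, 49.6, 48.6 and 53.2 CPM in tranilast libraries, a log2 fold change of -0.09 (SE 0.0595, edgeR adjusted p = 0.208) that was 0.03 with library size alone. Hsf2, a relative that forms trimers with it, had 30.3, 28.3, 24.7 and 27.7 CPM against 28.8, 32.1, 29.1 and 28.6 CPM, a log2 fold change of 0.10 (SE 0.0721, edgeR adjusted p = 0.274). Hsf2 was called higher with library size alone, at 0.21 (edgeR adjusted p = 0.0182), and on FPKM plus 1, at 0.19 (limma adjusted p = 0.042). The groups overlapped for both factors, and the log2 ratio of Hsf1 to Hsf2 was 0.91 ± 0.175 and 0.72 ± 0.132 (SD, n = 4 each, two-sided exact permutation p = 0.143, adjusted p = 0.286 over 6 ratios). The difference was -0.19, and -0.12 without control replicate 3. Transcript levels do not measure the activity of these factors, which is set largely by their trimerization and modification.

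Set beside the promoter sequences, lower calls were found among members with and without a match to the 2-unit or 3-unit form in the window. The search took exact units only, so a window without a match may still hold an imperfect element. The 4 members with the 3-unit form were all called lower, with a median log2 fold change of -0.39 and a range from -0.60 to -0.27. Of the 9 members with only the 2-unit form, 8 were tested and 7 called lower, with a median of -0.34. Of the 16 members with neither, 11 were called lower, with a median of -0.33, and among them were Tcp1, Cct3 and Stip1 at -0.46, -0.45 and -0.44. The 7 members without a window, Hspa8, Hsp90aa1, Hsp90ab1, Hspa9, Cct4, Pfdn1 and Hsf1, had a median of -0.35. Of all genes tested 28.8% were called lower, and of those with a mean of at least 100 CPM 59.2%. In the 3-unit group, Hspd1 and Hspe1 carry the same 30 bases. No test was made between the promoter groups, which are small and were formed with the results known.

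A longer list of 80 other cytosolic and mitochondrial chaperone genes and cofactors showed a mixed pattern. Of its 71 tested genes 24 were called lower and 17 higher (33.8% and 23.9%), against 28.8% and 28.2% of all genes, and the median log2 fold change was -0.05. This balance turned with the scaling, to 16 lower and 21 higher with upper-quartile factors, 15 and 28 with library size alone, and 15 and 21 on FPKM plus 1. Calls also went with level, since 59.2% of all genes with a mean of at least 100 CPM were lower and 17.0% higher. The list, many of whose genes were below that level, was not divided by level. Its balance is thus not a like comparison with that of the members. Of the HSP90 partners 9 were lower and 2 higher of 17, whereas the prefoldin and CCT partners had 1 lower and 3 higher of 8 and the tubulin cofactors 0 lower and 2 higher of 5. Of the HSP70 relatives and exchange factors 5 were lower and 3 higher of 13, of the J-domain proteins 4 and 3 of 9, of the mitochondrial folding and proteolysis genes 2 and 3 of 12, and both genes of the nascent-chain complex, Naca and Btf3, were lower. The lowest called values were those of Hspb6, a small heat-shock protein, with a log2 fold change of -0.78 from 2.88 ± 0.723 CPM in the control group (SD, n = 4), Nudc, an HSP90 partner, with -0.60, Ruvbl2, an ATPase of the R2TP complex, with -0.48, and Dnajc2, a ribosome-bound J-domain protein, with -0.36. The highest were Hspa2, an HSP70 best known from the testis, with 0.66 from 2.37 ± 0.535 CPM (SD, n = 4), Pdrg1, a prefoldin-like subunit, with 0.51, Hspb11 with 0.49 and Dnajb2 with 0.47. All 8 had edgeR adjusted p-values under 0.05, the largest being 0.0206 for Hspb6.

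**Figure D4:**
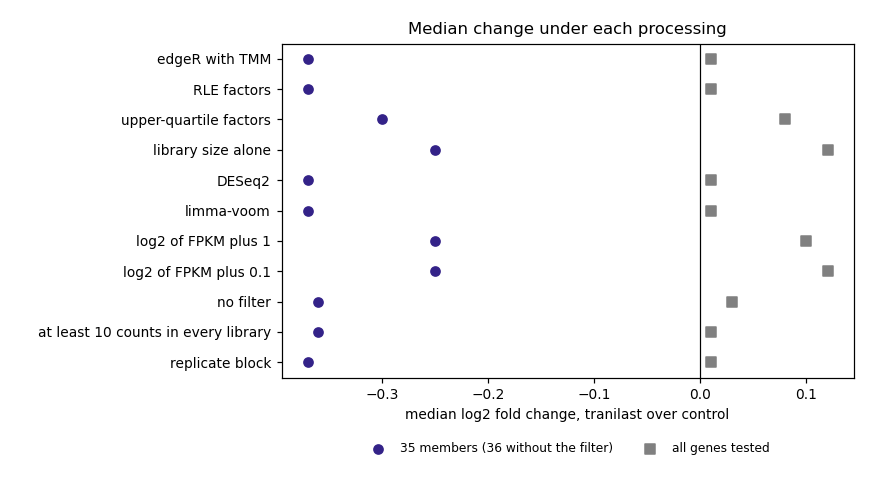
Median log2 fold change, tranilast over control, of the chaperone genes (circles) and of all genes tested (squares) under each processing of the same 8 libraries. Both medians shift together, from -0.37 and 0.01 with TMM factors to -0.25 and 0.12 with library size alone, and the chaperone median stays below that of all genes. The genes are not matched in level to the chaperone genes.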

How the data were processed

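Poly-A enriched RNA-seq libraries of 4 control and 4 tranilast samples were analysed. The authors deposited, per gene, estimated counts, of which between 92.7% and 93.9% per library were whole numbers, and FPKM, which they had scaled for transcript length and depth. The aligner, counter, strand setting and genome build are not given in the sources used here. The counts were rounded, filtered with filterByExpr, scaled by TMM and compared in edgeR 4.0.16 (R 4.3.3) by the quasi-likelihood test without a covariate, with Benjamini-Hochberg adjustment and a threshold of 0.05. The methods of the study name limma, and limma-voom (limma 3.58.1) and DESeq2 1.42.0 were run as alternatives. Log2 ratios within libraries of unrounded counts were compared by exact permutation tests. All 36 members, and of the longer list the 4 highest and 4 lowest called genes, were named. The members and lists were chosen with earlier results of these data known. Gene positions (1-based) come from the GENCODE M21 annotation of GRCm38, in which the Ensembl identifiers of all 36 members were found, and promoter sequences from RefSeq on GRCm38.p6. Other scalings, filters, FPKM, the replicate number as a block and each library left out were tried as alternatives. The code was tested on simulated data. Total counts per library, between 12053036 and 15618787, set the precision.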

Additional observations from a re-analysis of the deposited data

Results flagged for a closer look

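In 100 groups of 4 values, namely the CPM of each member and the log2 ratios in each group, the highest or lowest library was checked for a wide gap to the others, which chance gives in about 1 of 20 groups. It was found in 6. Hspa8 had 5186 CPM in tranilast replicate 4 against 5389 to 5417 in the other tranilast libraries, and Hsp90aa1 had 887 CPM in tranilast replicate 3 against 859.7 to 864. Cct7 had 307 CPM in tranilast replicate 1 against 315 to 316, and Hsf2 had 32.1 CPM in tranilast replicate 2 against 28.6 to 29.1. The log2 ratio of Cct6a to the other CCT subunits was -2.52 in control replicate 1 against -2.61 to -2.60. Hspa1a had 0.139 CPM in control replicate 2 and 0 in the other control libraries, which is under the limit of 3 counts.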

How the results depend on the processing

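The log2 fold change of 35 members was computed under 18 alternatives each. Of these 630 values, 577 kept their direction and their side of the threshold, 17 lost the threshold, 11 gained it and 25 turned. Members called lower numbered between 23 and 29 over all alternatives, and members called higher 1 with upper-quartile factors, 2 with library size alone and 2 on the log2 of FPKM with 1 or 0.1 added, and between 0 and 1 with a library left out. Of the longer list, 28 genes were higher and 15 lower with library size alone, 21 and 16 with upper-quartile factors, 21 and 15 on FPKM plus 1, and 22 and 14 with 0.1 added. With FPKM the difference of the Cct7 ratio was 0.01. Higher genes made up 49.5% of all called genes by TMM, 62.6% by upper-quartile factors, 70.9% by library size alone and 70.5% on FPKM plus 1. The values that turned belonged to members that were not called. With upper-quartile factors they were 0.04 for Dnajb1 and 0.07 for Pfdn5. With library size alone they were 0.09 for Dnajb1, 0.01 for Bag3 and Pfdn4, 0.12 for Pfdn5 and 0.03 for Hsf1. On FPKM plus 1 they were 0.08 for Dnajb1, 0.004 for Bag3, 0.01 for Pfdn4, 0.13 for Pfdn5 and 0.02 for Hsf1, and with 0.1 added 0.09, 0.004, 0.01, 0.13 and 0.02. Pfdn5 also turned to 0.002 in limma-voom, 0.0002 with at least 10 counts in every library, 0.001 with the replicate block and ranged from -0.06 to 0.04 with a library left out. The cause was not tested. Libraries with the same number were not paired, since their deviations correlated between -0.057 and 0.103 and 0 of 4 matched their own number best. With the replicate number as a block, 28 members were called lower and 0 higher. Hspa1a could be fitted only without the filter, with a log2 fold change of 0.53 (edgeR adjusted p = 0.794), and counts under 3 set the limit for it.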
